A study of Rattus norvegicus with 256 samples.

Results

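In a rat atlas of 31 organs, 8 arrays carried thymus RNA, 4 from males and 4 from females, beside 248 arrays of the other 30 organs. The thymus arrays were those whose title and tissue label name this organ. All organs were normal tissue of untreated Han Wistar-derived rats (AlpkHsdBrlHan:WIST), 5 of each sex, whose age was not given in the sources used here. Each array carried RNA from a piece of 1 organ of 1 animal, and the thymus arrays were numbered male 1, 2, 3 and 4 and female 1, 3, 4 and 5. The question asked here was which transcripts set the thymus of these animals apart from their other organs, and from spleen, mandibular lymph node, mesenteric lymph node and bone marrow in particular.

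Levels were GCRMA values on the log2 scale, for 31042 probesets, so a difference of 1 is a 2-fold difference. A probeset was called higher or lower in the thymus than the mean of the other 30 organ means when the Benjamini-Hochberg adjusted p of limma was under 0.05, the difference was over 1 and the higher side averaged more than the expression limit, which was the level, about 100 on the linear scale, that the study took as expressed above background. It was called above every other organ when all 30 pairwise differences passed the same limits, with the largest of the 30 p-values carried forward. In the organ comparisons the p-values used 1 spread per probeset, pooled within organs over all 31 organs. They do not measure the spread of the thymus or of the compared organ alone. A gene that varied in other organs could miss a call, and a small p could go with a wide thymus spread. The number of arrays, 8 in the thymus and between 4 and 10 in the organs named here, limited the precision of the means. Across the thymus arrays the median over probesets was 3.99 to 4.18, within the range of 3.86 to 4.45 over all arrays, and their values correlated at r = 0.979 to 0.991 with each other. On 4 arrays of other organs, and on none of the thymus, the transcripts of the X and Y chromosome went against the labelled sex. On the thyroid array of male 1, Cd8a and other genes of T cells were high, as described at the end. Without the 4 arrays the main counts given below, 3702 higher, 1673 lower, 210 above every organ and 16 below every organ, were 3701, 1671, 207 and 16, and without the thyroid of male 1 they were 3706, 1673, 213 and 16.

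The thymus is the organ in which T cells mature. Precursors that arrive through the blood divide, rearrange the genes of the T cell receptor, pass through a stage at which they carry both CD4 and CD8, and are kept or die according to what their receptor binds. Epithelial cells of the cortex and medulla form the scaffold and provide the signals for this, and most cells of the organ before involution are immature T cells, the thymocytes.

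The organ label was checked against its markers first. The 3 probesets of Cd8a, which encodes the alpha chain of the CD8 coreceptor, were all above every other organ. The one with the highest mean over all organs lay between 12.41 and 12.76 on the 8 thymus arrays, with a median of 12.58, and no array of another organ was above 10.38. The mean was 12.59 ± 0.13 in the thymus (SD, n = 8) and 9.63 ± 0.40 in the mandibular lymph node (n = 9), the highest other organ, a difference of 2.95 (SE 0.39, adjusted p = 1.1e-10) or 7.75-fold. Below these came the mesenteric lymph node at 9.38 ± 0.59, whose arrays overlapped those of the mandibular node, then the spleen at 8.73 ± 0.27 and the uterus at 6.43 ± 1.22, while the brain averaged 2.20. Rag1, the recombinase that serves as the other marker of the organ, was not analysed here because no probeset carried its name in the annotation used. The same held for Rag2, Dntt, Ptcra, Themis, Foxn1, Aire, Psmb11, Prss16 and Ccl25.

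In whole-organ RNA, fewer cells of a type and less RNA per cell of that type cannot be told apart, and this applies to every level and difference given here. Of all probesets, 3702 (11.9%) were higher in the thymus than the mean of the other organs and 1673 (5.39%) were lower. With 1 probeset per gene, the one with the highest mean over the 31 organs, 2279 of 14217 genes (16.0%) were higher and 1184 (8.33%) lower, and the median difference over these genes was -0.11. The thymus had 9925 probesets (32.0%) above the expression limit, which put it 8th of the 31 organs. It was the organ with the highest mean for 2314 probesets, and for 210 (0.677%) it was called above every other organ. These 210 probesets carried 130 named genes, and 51 of them had no single gene name. For 156 of the 210, every thymus array was above every other array. The gap to the next organ had a median of 1.51. The next organ was the mandibular lymph node for 67 probesets (31.9%), the bone marrow for 27, the mesenteric lymph node for 21, the spleen for 20, the brain for 14 and the testes for 11.

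**Figure D1:**
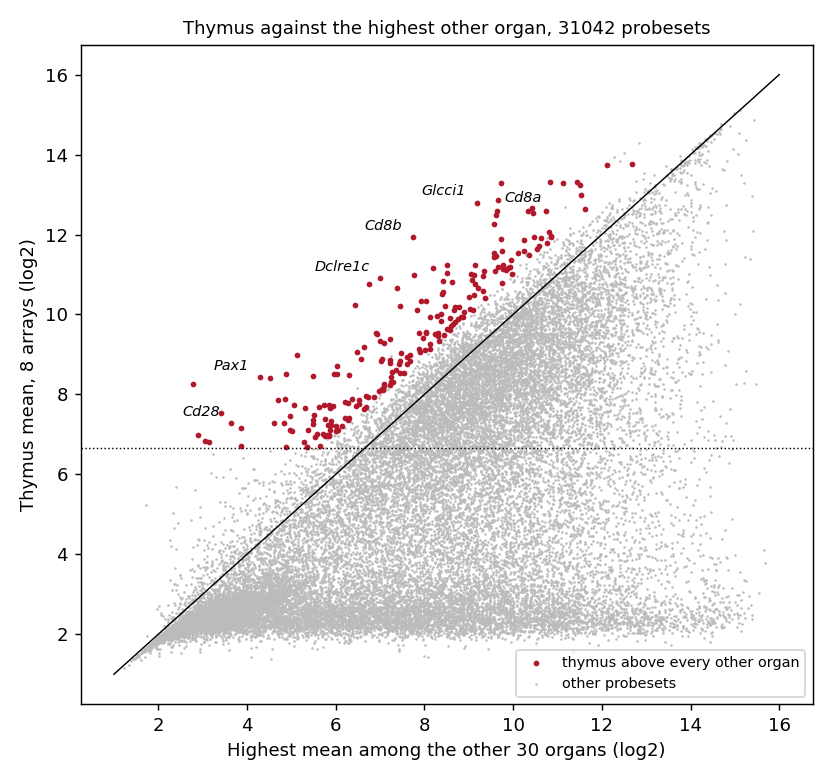
Mean log2 value in the thymus (vertical axis, 8 arrays) against the highest mean among the other 30 organs (horizontal axis, log2) for 31042 probesets. The line marks equality, the dotted line the expression limit, and the 210 red points the probesets called above every other organ, of which Cd8b, Pax1, Dclre1c, Cd28, Glcci1 and Cd8a are labelled.

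Cd8b, Cd28 and Bcl11b, genes of T cells, were among the 20 named genes with the largest gap to the next organ. Cd8b, the beta chain of CD8, had the largest gap of these 20. Its thymus arrays spanned 11.79 to 12.23 with a median of 11.87, and those of the mandibular lymph node, the next organ, 6.88 to 8.53. The difference was 4.18 (SE 0.23, adjusted p = 1.63e-44), or 18.2-fold, and the highest value on any array outside the thymus was 8.77. Cd28, the costimulatory receptor that T cells need beside their antigen receptor, spanned 6.80 to 7.63 with a median of 7.31 in the thymus and 2.89 to 4.35 in the mandibular lymph node. The difference was 3.64 (SE 0.11, adjusted p = 1.19e-83). Its mean in the mandibular node was under the expression limit, and no fold is given here or below where that was so, since low GCRMA values are compressed. Bcl11b, a transcription factor that commits precursors to the T lineage, spanned 10.31 to 11.86 with a median of 10.95, against 7.32 to 10.16 in the mandibular lymph node, a difference of 2.53 (SE 0.38, adjusted p = 2.56e-08). For each of these genes all 8 thymus arrays were above all 248 others.

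Genes with other roles reached gaps of the same size. Dclre1c encodes Artemis, the nuclease that opens the hairpins left during V(D)J recombination. Its thymus arrays spanned 10.58 to 11.32 with a median of 10.83, the spleen was next at 7.01 ± 0.47 (n = 8), and the difference of 3.90 (SE 0.19, adjusted p = 1.62e-50) was 15.0-fold. Pax1, a transcription factor of the epithelium that forms the thymus, spanned 7.80 to 9.14 with a median of 8.41. In the pancreas, the next organ, it spanned 3.59 to 5.19, and the difference was 4.14 (SE 0.13, adjusted p = 8.03e-84). The thymus was the only one of the 31 organs in which this Pax1 probeset averaged more than the expression limit. Glcci1, first described as a transcript that glucocorticoids induce in thymocytes, spanned 12.52 to 13.03 with a median of 12.81, while the mandibular lymph node averaged 9.19 ± 0.45, which made it 12.2-fold higher (difference 3.61, SE 0.21, adjusted p = 1.09e-38). A 2nd Glcci1 probeset had a gap of 3.21, while the 3rd was at 6.47 in the thymus and 7.01 in the pituitary and was not called.

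Fas, the death receptor, spanned 10.94 to 11.47 with a median of 11.10 in the thymus and 7.61 to 9.30 in the ileum, the next organ, and was 7.84-fold higher (difference 2.97, SE 0.24, adjusted p = 1.84e-25). A 2nd Fas probeset was called too, and the 3rd averaged 2.89 in the thymus and was not. Tap2, which carries peptides to MHC class I molecules, spanned 10.62 to 11.26 with a median of 11.01 and was 9.31-fold higher than in the bone marrow at 7.76 ± 0.41. Tbata, named for its presence in thymus, brain and testis, spanned 11.88 to 13.11 with a median of 12.48 in the thymus and 9.05 to 10.01 in the testes (n = 4), a difference of 2.87 (SE 0.29, adjusted p = 2.43e-17). In the brain, however, Tbata averaged 2.42, the lowest of the 31 organs. No array of these genes in another organ reached the lowest thymus array. The chemokines Ccl22 and Ccl4 were higher by 2.67 and 3.04 than in the mesenteric lymph node, the next organ for both, where they averaged 5.07 and 4.85. Dck, the deoxycytidine kinase of nucleoside salvage, was higher by 2.68 than in the bone marrow, where it averaged 6.02. These 3 means were under the expression limit. RT1-N3, a class I gene of the rat MHC, varied widely in the thymus, between 8.05 and 11.43 with a median of 9.36, and was 5.99-fold above the mandibular lymph node. The other 6 of the 20 genes chosen for the largest gaps were Syt6, Ssx2ip, Ctcfl2, Fbxl12, LOC102551899 and 2610318N02Rikl, with gaps between 2.62 and 3.76. For 2610318N02Rikl a 2nd probeset was at 5.96 in the thymus and 11.92 in the testes. All 20 genes had every thymus array above every other array, as did 156 of the 210 probesets called. Since the 20 were chosen for the largest gaps, this lack of overlap, here and above, follows largely from the choice and is not separate support.

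**Figure D2:**
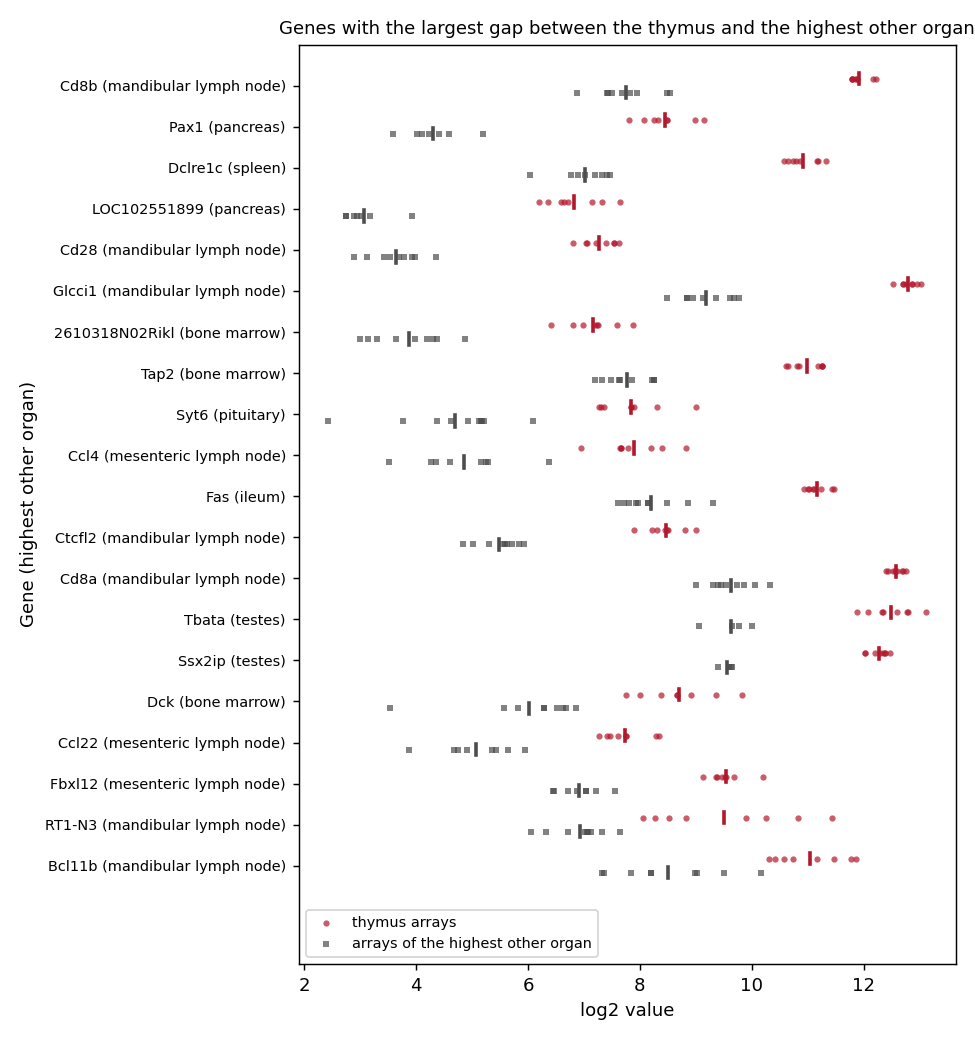
Log2 values (horizontal axis) of the 20 genes with the largest gap to the highest other organ, 1 gene per line with that organ in brackets. Red circles are the 8 thymus arrays, grey squares the arrays of the highest other organ and vertical bars the means. The red and grey points of a gene do not overlap, which the choice by gap makes likely.

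The largest gap of all, 5.48, belonged to a probeset with no gene name, 1396760_at. Its thymus arrays spanned 7.56 to 8.97 with a median of 8.17, and the next organ was the thyroid at 2.79 ± 1.78, with a median of 2.23 and 1 array, that of male 1, at 7.84. Without that array the gap was 5.59. The next unnamed probesets, 1394848_at and 1380908_at, had gaps of 4.13 and 3.86. These probesets were chosen after their values were seen, as were the following genes. A 2nd probeset of Gfi1, a repressor used by early T cells, had a gap of 4.08, while the better expressed one had a gap of 0.96 and was not called. Thy1, a surface antigen of rat thymocytes and neurons, was called with a thymus mean of 12.99 and 11.54 in the brain, the next organ. Spo11, the nuclease of meiosis, averaged 8.53 in the thymus and 7.46 in the testes. The T cell adaptors Skap1 and Trat1 had gaps of 1.24 and 2.19, and the Ikaros family member Ikzf2 one of 1.86.

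The lymphoid organs and the bone marrow, which share cell types with the thymus, were also set against it one by one. Over all probesets, 2024 (6.52%) were higher and 1942 (6.26%) lower in the thymus than in the spleen, 1476 (4.75%) and 1372 (4.42%) against the mandibular lymph node, and 1649 (5.31%) and 1730 (5.57%) against the mesenteric lymph node. Against bone marrow 3150 (10.1%) were higher and 1744 (5.62%) lower, a split that became 2176 and 2142 when the arrays were brought to a common distribution by quantile normalization. With 1 probeset per gene, the background for the lists below was 8.95% higher and 9.23% lower against the spleen, 6.19% and 6.87% against the mandibular lymph node, 6.94% and 8.68% against the mesenteric lymph node, and 12.1% and 8.46% against bone marrow, with median differences between -0.06 and 0.03. As a description, the thymus mean over all probesets correlated at r = 0.943 with the mandibular lymph node, 0.931 with the mesenteric lymph node, 0.917 with the spleen, 0.891 with bone marrow and 0.697 with the brain, the organ least like it.

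The T cell receptor complex and the coreceptors were high as a group. Of 16 genes listed, 11 were measured, and all 11 were higher than the mean of the other organs, with a median difference of 8.25 where the median over all genes was -0.11. Of the 11, 9 were above every other organ, where 0.689% of genes were, and 6 with the males only. Cd3d, the delta chain of CD3, spanned 13.17 to 13.51 with a median of 13.23 in the thymus, against 11.13 ± 0.27 in the mandibular lymph node, a difference of 2.15 (SE 0.47, adjusted p = 0.000321). Cd247, the zeta chain, was at 12.59 ± 0.16 in the thymus and 10.75 ± 0.35 in the mesenteric lymph node. The coreceptor Cd4 spanned 10.22 to 10.96 with a median of 10.36, and its next organs were the spleen at 8.39, the mesenteric lymph node at 7.68, the mandibular lymph node at 7.65 and adipose tissue at 6.98. The thymus arrays of Cd4 did not overlap with those of any other organ, and the gap to the spleen was 2.11 (SE 0.26, adjusted p = 4.91e-12). Cd3g and Cd5 were not called above every organ, although their thymus arrays lay above all others, because the fit gave them adjusted p-values of 0.0785 and 0.102 for gaps of 1.53 and 1.14. The mean level of the 11 genes on a thymus array was 11.62 to 11.89, and on an array of the mandibular lymph node, the highest other organ, 8.97 to 9.91.

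To show sequence beside these levels, the promoters of 4 T cell genes of the lists are printed, each from 250 bases before to 50 after the transcript start in RefSeq (GRCr8), 5′ to 3′ on the strand of the gene. Cd3d (chr8:54185269-54185568, plus strand) and Cd3g (chr8:54183869-54184168, minus strand) are neighbours that start away from each other, Cd8a lies at chr4:104923866-104924165 (plus strand) and Cd28 at chr9:69660066-69660365 (plus strand). Capitals mark the letters of 4 motifs searched on both strands, TGTGGT for Runx factors, CTTTGA for Tcf and Lef factors, CAGCTG for E-box proteins and AGGAAG for Ets factors.
Cd3d: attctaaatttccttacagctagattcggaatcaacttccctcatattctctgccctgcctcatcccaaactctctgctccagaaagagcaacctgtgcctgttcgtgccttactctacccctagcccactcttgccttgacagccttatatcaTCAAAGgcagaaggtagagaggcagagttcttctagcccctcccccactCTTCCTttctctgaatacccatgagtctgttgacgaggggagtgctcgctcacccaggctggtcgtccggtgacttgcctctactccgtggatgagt
Cd3g: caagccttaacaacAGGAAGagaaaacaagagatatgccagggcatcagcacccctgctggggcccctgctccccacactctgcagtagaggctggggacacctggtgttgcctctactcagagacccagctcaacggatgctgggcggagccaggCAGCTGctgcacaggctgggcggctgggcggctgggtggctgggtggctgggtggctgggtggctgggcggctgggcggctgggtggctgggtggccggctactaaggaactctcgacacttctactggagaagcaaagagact
Cd8a: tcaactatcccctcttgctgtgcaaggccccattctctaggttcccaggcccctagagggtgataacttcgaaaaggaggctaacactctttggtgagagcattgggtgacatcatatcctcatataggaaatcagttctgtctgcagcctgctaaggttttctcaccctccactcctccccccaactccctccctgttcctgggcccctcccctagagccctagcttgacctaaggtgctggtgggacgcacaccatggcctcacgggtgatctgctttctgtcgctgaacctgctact
Cd28: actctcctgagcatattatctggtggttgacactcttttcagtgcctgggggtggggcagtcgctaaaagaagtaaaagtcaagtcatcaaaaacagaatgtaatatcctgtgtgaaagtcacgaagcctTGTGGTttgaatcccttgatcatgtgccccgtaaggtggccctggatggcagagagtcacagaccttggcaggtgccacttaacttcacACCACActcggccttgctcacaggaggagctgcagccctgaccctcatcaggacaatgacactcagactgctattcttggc
The Cd3d window held 1 Tcf/Lef and 1 Ets match, that of Cd3g 1 E-box and 1 Ets match, that of Cd28 2 Runx matches and that of Cd8a none. Over the 103 genes above every other organ with a promoter in the table, 10.7% held the Runx letters, 17.5% Tcf/Lef, 17.5% E-box and 39.8% Ets, against 16.8%, 15.7%, 15.1% and 34.1% of all 24206 promoters. These are matches of letters, given as a description.

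Signalling from the receptor followed. Of 24 listed genes 19 were measured, 18 were higher than the mean of the other organs and 5 were above every organ, with a median difference of 5.19. With the males only, 2 were above every organ. Lat, the adaptor that links the receptor to downstream pathways, had a gap of 2.27 to the mandibular lymph node (adjusted p = 1.3e-05), Sh2d1a, an adaptor of SLAM receptors, one of 2.42, and Zap70, the kinase that binds the CD3 chains, one of 1.35. Lck, the kinase bound to CD4 and CD8, spanned 13.61 to 14.02 with a median of 13.85, and its mean was 1.42 above the mandibular lymph node at 12.41 ± 0.14. That gap was not called (adjusted p = 0.0998), although no array of another organ was above 12.70. Lck varied more in other organs that entered the pooled spread, with an SD of 3.2 in the pancreas and 2.9 in the aorta. Other signalling genes were as high elsewhere. Rasgrp1, which activates Ras in T cells and neurons, averaged 9.61 in both thymus and brain, and the phosphatase Ptpn6, higher than the mean of all organs, was lower than in spleen by 1.2 and in the mandibular and mesenteric lymph nodes by 1.32 and 1.12.

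Transcription factors of T cell development were mixed. Of 26 listed genes 20 were measured, 15 were higher, none lower, and 6 were above every organ, with a median difference of 4.08. The 6 became 3 with quantile normalization, 3 with the females only and 4 without male 3. Besides Bcl11b these included Tcf7, an effector of Notch in early T cells, with a gap of 1.63 (SE 0.50, adjusted p = 0.0293), Tcf12, an E protein, with a gap of 1.87, and the chromatin organizer Satb1. Satb1 spanned 12.82 to 13.57 with a median of 13.29 in the thymus, and the mandibular lymph node was at 11.50 ± 0.45, a difference of 1.75 (SE 0.29, adjusted p = 5.42e-07). Tox, needed for CD4 T cell development, had its next level in the colon, 1.02 lower, and Runx1 in the bone marrow, 1.04 lower. Gata3 and Myb were not highest in the thymus. Gata3, which directs the CD4 lineage, averaged 9.77 in the thymus and 10.42 in skin, and Myb 10.93 in the thymus and 11.19 in the bone marrow. Hhex and Lyl1, factors of haematopoietic precursors and B cells, were lower in the thymus than in all 4 lymphoid and marrow organs, Hhex by 3.45 to 3.99 and Lyl1 by 2.43 to 5.18.

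Of the genes of V(D)J recombination, 10 of 14 listed were measured, 8 were higher and 2, Dclre1c and Lig4, were above every organ, with a median difference of 1.4. Lig4, the ligase that joins the broken ends, spanned 10.73 to 12.31 with a median of 11.51 in the thymus, against 9.57 ± 0.69 in the mandibular lymph node, a difference of 1.97 (SE 0.22, adjusted p = 2.54e-14). Its partner Xrcc4 was higher than the mean of the other organs by 2.16. Of the genes of selection and cell death, 9 of 21 measured were higher and none lower, with a median of 1.09. The pro-apoptotic Bid and Bcl2l11 were higher by 4.49 and 2.63, Cd69, which appears on thymocytes after positive selection, by 6.80, and Casp8 averaged 10.03. Of these 21, 1 gene, Fas, was above every organ, while its ligand Faslg stayed between 2.34 and 2.92 on the thymus arrays.

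The epithelial compartment could be read from keratins and related genes. Of 26 listed genes of thymic epithelium 18 were measured, 10 were higher than the mean of the other organs, 1 was lower and 2 were above every organ, with a median difference of 1.91. Krt5, a keratin of basal and medullary epithelium, spanned 9.55 to 10.81 with a median of 10.25 in the thymus and averaged 13.40 in skin, the highest organ. Against spleen, mandibular and mesenteric lymph node and bone marrow, 12, 11, 11 and 11 of the 18 genes were higher and none lower, with medians of 4.70, 2.91, 2.73 and 4.31. Krt5 was higher in the thymus than in spleen by 7.90, than in the mandibular and mesenteric lymph nodes by 7.89 and 7.71 and than in bone marrow by 7.67. Krt14 was higher than the mean of all organs by 6.03, and Ly75, the endocytic receptor of cortical epithelium and dendritic cells, by 5.57. Tp63, the transcription factor of stratified epithelia, averaged 7.01 in the thymus and 11.06 in skin. Cldn3, a tight junction protein of medullary epithelium, was the gene called lower, by 3.25. On the arrays, the mean level of the 18 genes was 7.93 to 8.15 in the thymus and 6.93 to 7.62 in skin, the next organ. These ranges did not overlap, but the mean held Tbata and Pax1, the 2 genes above every organ. Tbata averaged 12.49 in the thymus and 2.45 in skin and Pax1 8.44 and 2.69, while Krt5 and Tp63 were higher in skin. The list without Tbata and Pax1 was not compared.

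**Figure D3:**
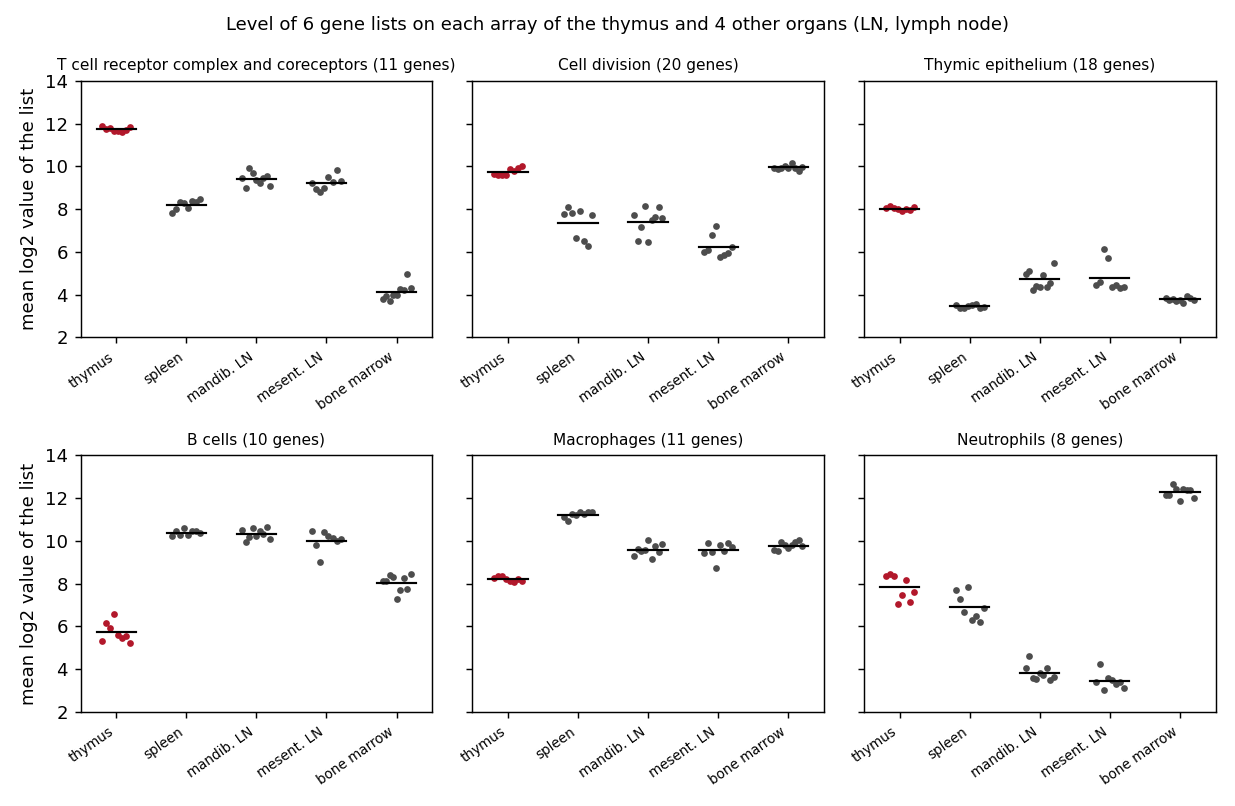
Mean log2 value of 6 gene lists (vertical axis) on each array of the thymus (red) and of the spleen, mandibular and mesenteric lymph node and bone marrow (grey), with bars at the means. The thymus arrays lie highest for the T cell receptor complex (11.62 to 11.89) and the epithelium (7.93 to 8.15), near the bone marrow for cell division, and lowest for B cells (5.24 to 6.58) and macrophages (8.06 to 8.35).

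Genes of dividing cells were high in the thymus and in the bone marrow alike. Of 22 genes of cell division 20 were measured and 19 were higher than the mean of the other organs, with a median difference of 4.52, and of 25 genes of DNA replication 21 were measured and 20 were higher, with a median of 3.28. Mki67, the antigen of cycling cells, spanned 11.41 to 12.22 with a median of 11.85 in the thymus, while the bone marrow, the highest organ, averaged 12.51. Top2a, the topoisomerase of dividing cells, was higher than the mean of the other organs by 4.97. Set against spleen, mandibular and mesenteric lymph node, 19 of the 20 division genes were higher in each comparison, with medians of 2.44, 2.33 and 3.69. Set against bone marrow, 1 was higher and 2 were lower, with a median of -0.24. The 2 were Ccne1, the cyclin of the step into S phase, at -2.03, and the phosphatase Cdc25a at -1.26. The higher one was Birc5, or survivin, an inhibitor of apoptosis that acts in mitosis, with a gap of 1.02 (SE 0.22, adjusted p = 0.000296). Its arrays overlapped those of other organs, and it was the only member of these lists called above every organ. That call was lost with quantile normalization, with the females only and without male 2, male 3, female 1 or female 5. The mean level of the division genes was 9.59 to 10 on thymus arrays and 9.81 to 10.18 on bone marrow arrays, which overlapped. For replication it was 9.37 to 9.92 in the thymus and 9.86 to 10.25 in the bone marrow. Among those genes Tk1, thymidine kinase, was the 1 called lower than in bone marrow, by 2.01.

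Notch signalling directs precursors to the T lineage, and of 18 listed genes, all measured, 3 were higher and 1 lower, with a median of -0.10. Over all genes 16.0% were higher and 8.33% lower, with a median of -0.11, so this list lay near the background. The receptor Notch1 was higher by 1.32, the glycosyltransferase Mfng by 3.62 and the coactivator Maml1 by 1.10, and the ligand Jag1 was lower by 1.52. Among cytokines and their receptors, 8 of 16 measured genes were higher and 1, Kitlg, was lower, by 1.06, with a median of 1.32. Il7, the growth factor of thymocytes made by the epithelium, averaged 7.31 ± 0.41, or 3.53 above the mean of the other organs and 0.97 above the mandibular lymph node. A 2nd Il7 probeset had a gap of 1.33 and was called above every organ. The receptor chain Il7r was lower than in spleen by 1.27.

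Of 13 measured genes of thymocyte migration and egress, 7 were higher than the mean of the other organs, with a median of 2.82. Against spleen 4 were higher and 5 lower, with a median of 0.31, and against bone marrow 5 were higher and 1 lower, with a median of 2.04. Against the mandibular and the mesenteric lymph node 1 was higher and 6 were lower in each, with medians of -0.70 and -0.49. S1pr1, the receptor that lets T cells leave lymphoid organs, averaged 9.15 in the thymus and 12.30 in the mesenteric lymph node, and was lower than in spleen, mandibular and mesenteric lymph node by 2.86, 3.13 and 3.14. Klf2, the factor that drives S1pr1, was lower by 1.76, 2.16 and 2.29. Cxcr3, a receptor of effector T cells, was lower by 3.63, 3.47 and 2.80, and the homing chemokine Ccl21 by 2.10, 2.43 and 2.48, although Ccl21 was higher than in bone marrow by 7.90. Cxcl12, which guides precursors, was lower than in all 4, by 2.35 in spleen, 1.39 and 1.45 in the lymph nodes and 1.11 in bone marrow.

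**Figure D4:**
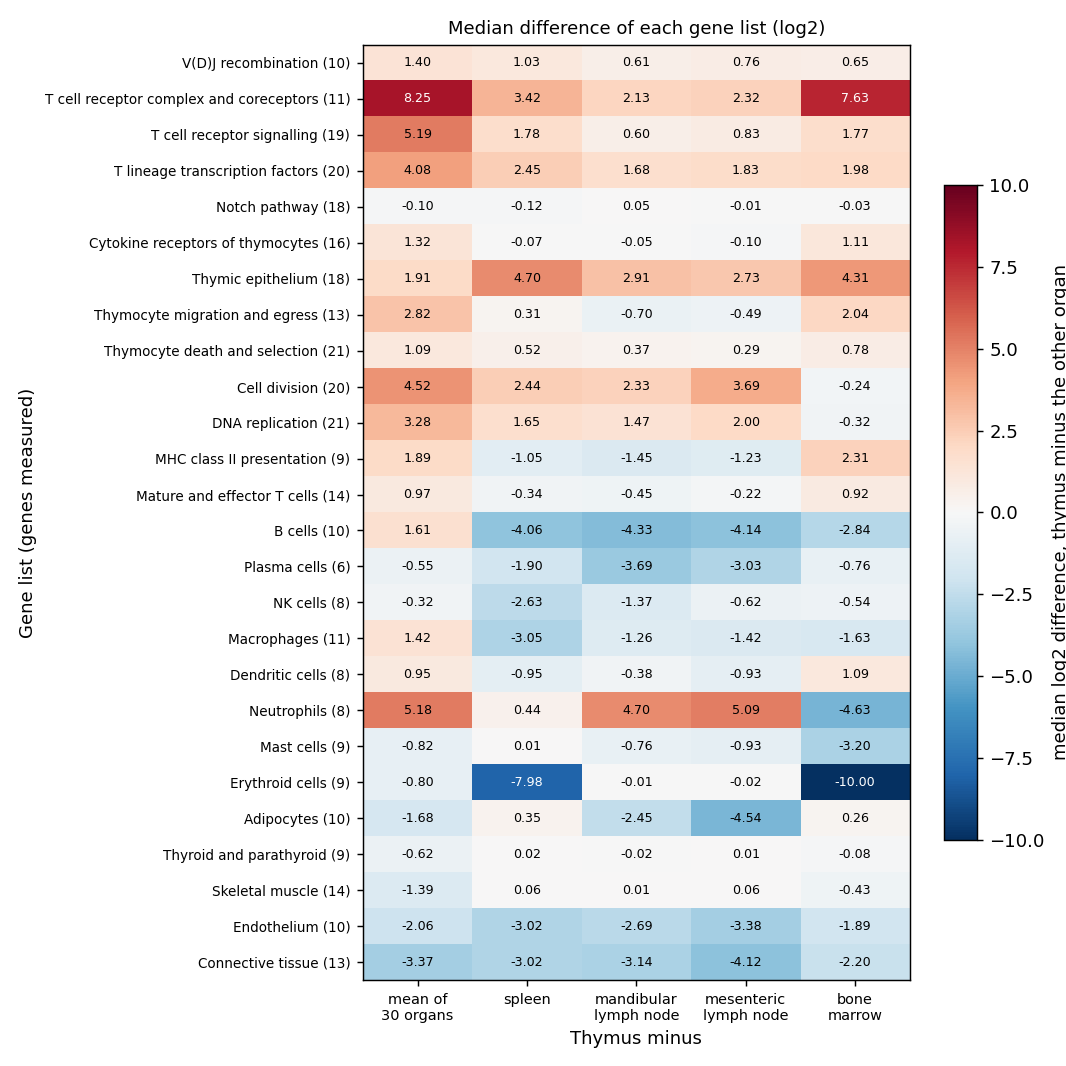
Heat map of the median log2 difference of each of 26 gene lists, thymus minus the mean of the other 30 organs, spleen, mandibular lymph node, mesenteric lymph node and bone marrow. The T cell receptor complex is positive in every column (2.13 to 8.25) and the connective tissue list negative against the mean of the other organs (-3.37), while cell division is positive in all columns except bone marrow (-0.24).

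Markers of other cells that a thymus piece may hold gave the other side of these comparisons. B cell genes were all lower than in spleen and in both lymph nodes, 10 of 10 in each, with medians of -4.06, -4.33 and -4.14, and 7 of 10 were lower than in bone marrow. Cd79b, a chain of the B cell receptor, was lower than in spleen by 7.70, and Ms4a1, or CD20, by 6.89. The 10 genes averaged 5.24 to 6.58 on thymus arrays and 10.23 to 10.61 on spleen arrays, without overlap. Macrophage genes were lower than in spleen for 10 of 11, with a median of -3.05, although 5 of the 11 were higher than the mean of all organs. Csf1r, the receptor for the macrophage growth factor, was lower than in spleen by 4.61. None of 8 NK cell genes was called in either direction against the mean of the other organs, and their level was 2.85 to 3.14 in the thymus and 5.59 to 7.23 in spleen. MHC class II genes stood between, with 7 of 9 higher than the mean of all organs, 7 lower than in spleen and 6 higher than in bone marrow. Ciita, their transactivator, was lower than in spleen by 2.64 and higher than in bone marrow by 2.59. Of 14 genes of mature and effector T cells, 3 were higher than the mean of the other organs, with a median of 0.97. They included Icos, a costimulator, by 6.22 and the pore-forming Prf1 by 4.95, whereas the chemokine Ccl5 was lower than in spleen by 5.74. Of 6 plasma cell genes 1, the joining chain Jchain, was higher than the mean of all organs, and 6 were lower than in the mandibular lymph node. Of 8 dendritic cell genes 2 were higher than the mean of all organs, Ccl22 and the activation marker Cd83, by 5.29 and 5.49. Over all genes the share higher than the mean of the other organs was 16.0%, against which these small counts should be read.

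Neutrophil granule genes were high. Of 8 measured, 5 were higher than the mean of the other organs, with a median of 5.18. S100a9, a calcium-binding protein of neutrophils, spanned 11.23 to 12.69 with a median of 12.21 in the thymus, and the highest organ, bone marrow, averaged 15.41. The defensin Defa5 spanned 9.41 to 11.23 with a median of 10.25, and bone marrow averaged 14.62. The differences from spleen were 0.04 for S100a9 and 0.49 for Defa5 and were not called, and 5 of the 8 genes were higher than in each of the lymph nodes, with medians of 4.70 and 5.09. Mean levels were 7.05 to 8.47 on thymus arrays and 11.88 to 12.66 on bone marrow arrays, and Cxcr2, a receptor of mature neutrophils, was at 2.06 ± 0.02. Erythroid genes were low. All 9 were lower than in spleen and in bone marrow, with medians of -7.98 and -10, and the erythroid factor Klf1 averaged 2.31.

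Transcripts of tissue that adjoins the thymus were low or varied between arrays. The thyroglobulin gene Tg reached at most 3.73 and the parathyroid hormone gene Pth at most 4.81 on a thymus array, and the 9 thyroid and parathyroid genes averaged 2.41 to 2.72, where thyroid arrays had 10.98 to 11.80. Of 10 adipocyte genes 4 were lower than the mean of all organs, 7 and 8 were lower than in the mandibular and mesenteric lymph nodes, and the list had a level of 4.75 to 6.77 in the thymus. Ucp1, the uncoupling protein of brown fat, varied between 2.32 and 8.27. Skeletal muscle genes were at 3.25 to 5.17, with Acta1, skeletal actin, at 8.88 on male 2. None of the 9 mast cell genes was called in either direction. Their part in the results above was not tested.

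Connective tissue and vessels were lower in the thymus. Of 13 connective tissue genes 12 were lower than the mean of the other organs (per gene background 8.33%), with a median of -3.37, and their level was 6.05 to 6.71 in the thymus and 11.82 to 12.20 in the uterus, the highest organ. The collagen Col1a1 spanned 5.72 to 7.05 with a median of 6.33 in the thymus and was lower by 5.14 than the mean of the other organs. It was also lower than in spleen by 3.49 and than in bone marrow by 7.75. Dcn, a proteoglycan, was the exception against spleen, where the thymus was higher by 4.13. Of 10 endothelial genes 6 were lower, with a median of -2.06. Emcn, a sialomucin of venous and capillary endothelium, was lower by 4.04 and the VEGF receptor Kdr by 3.03.

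Below every other organ were 16 probesets (0.0515%), or 12 genes (0.0844%) with 1 probeset per gene, and on 8 of the 16 probesets every thymus array was below every other array. Cd59b, an inhibitor of complement lysis, had the largest distance. It spanned 6.42 to 6.96 with a median of 6.75 in the thymus and 7.74 to 9.54 in the mandibular lymph node, the lowest other organ, a difference of -1.89 (SE 0.16, adjusted p = 3.52e-21). Nr2f2, a nuclear receptor of veins and stroma, spanned 5.42 to 6.90 with a median of 6.09, against 7.99 in bone marrow, a difference of -1.84 (adjusted p = 7.89e-14). The matrix genes Ccn2, Ogn and Sparc were lower than in liver, the lowest other organ for each, by 1.75, 1.47 and 1.18. Of these, Ogn, or mimecan, varied between 4.03 and 7.04 in the thymus and came closest to the threshold (adjusted p = 0.0275), which it missed without male 1, male 2 or female 1, at differences of -1.26, -1.42 and -1.26. The hypoxia factor Epas1 was lower by 1.22 than in bone marrow, and Vkorc1, the vitamin K epoxide reductase, by 1.12. The 10 genes with the largest distance also held Sos2, Lrp1 and Lrrc58, with differences of -1.62, -1.35 and -1.19. For Cd59b, Nr2f2, Sos2 and Vkorc1 the thymus arrays did not overlap with those of any other organ.

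Between the thymus arrays most probesets varied little, and those that varied included genes of the rat MHC, named RT1. Over the 9925 probesets expressed in the thymus the median SD was 0.245, and 55 (0.554%) had an SD over 1. Of the 20 RT1 probesets among them, 9 had an SD over 1, with a median of 0.781, and 8 of the 30 most variable probesets were of RT1. The largest SD, 4.87, was that of a probeset of Xist, which differed between the sexes. RT1 genes are highly polymorphic between rats. A probeset of RT1-Bb, a class II beta chain, read 3.98, 3.81, 3.51 and 11.13 on males 1 to 4 and 11.52, 10.37, 5.33 and 11.83 on females 1, 3, 4 and 5. These values fell on both sides of the expression limit. Another RT1-Bb probeset read 13.50, 13.00, 13.38 and 12.37 in those males and 2.89, 12.14, 12.72 and 6.67 in those females, so different arrays were low.

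For RT1-Bb, other organs were then compared with the thymus array of the same sex and number in the labels. For the 1st of these probesets they were on the same side of the expression limit as the thymus on 147 of 156 arrays (94.2%) over 24 organs, and in 17 of these organs on every array. For the 2nd it was 145 of 169 arrays (85.8%) over 26 organs. All thymus arrays but female 1 were over the limit for it, as were 8 arrays each of the lung, kidney and ileum. Many arrays would therefore agree whatever their number. Thymus female 5 was barely over, at 6.67, and female 5 read 3.28 in the spleen and 3.32 in the lung. In 4 organs that the study supplement numbers in a series of their own, the adrenal, bone marrow, pituitary and ovary, the counts for the 1st and 2nd probeset were 15 of 27 (55.6%) and 19 of 27 (70.4%). For a probeset of the class I gene RT1-CE5 the share was lower, 75 of 117 arrays (64.1%) over 18 organs. In 7 of these organs, among them the lung, spleen and both lymph nodes, every array was on the same side. In the kidney, caecum and stomach, where 1 array passed the limit, 3, 3 and 2 of 8 arrays were. A lower share thus need not mean that its values followed the numbers less. For the 1st RT1-Bb probeset, the spleen of female 2 read 12.60 and that of female 3 read 3.55. This was the reverse of the mandibular lymph node at 3.57 and 11.99. What lies behind this pattern was not tested. A class I probeset of RT1-N2 also varied, at 7.99, 7.69, 3.02 and 12.40 in males and 12.88, 5.55, 2.85 and 12.90 in females. Outside RT1, a probeset of Uhrf1, which maintains DNA methylation, was at 7.64, 8.26 and 8.53 on male 2, female 4 and female 5 and at 3.80 or less on the others.

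**Figure D5:**
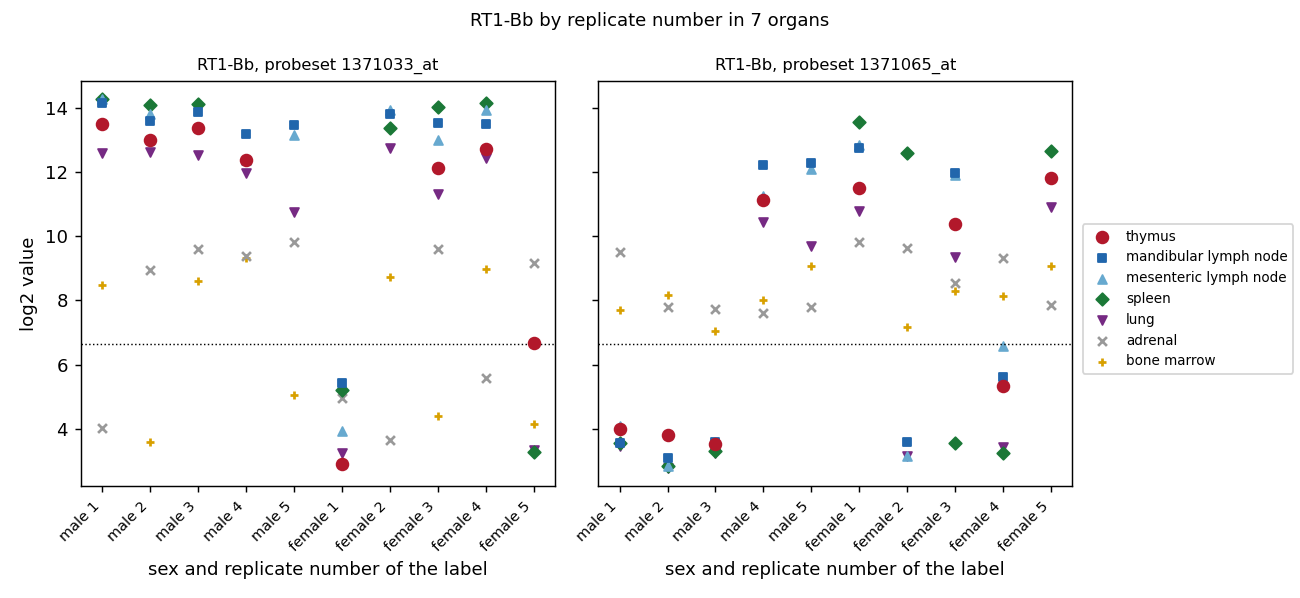
Log2 values (vertical axis) of the 2 RT1-Bb probesets by sex and label number (horizontal axis) in the thymus, mandibular and mesenteric lymph node, spleen, lung, adrenal and bone marrow, with a dotted line at the expression limit. For the probeset in the right panel male 4 and females 1, 3 and 5 of the thymus lie high (10.37 to 11.83), and most other organs follow the same numbers.

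Few transcripts separated males from females in the thymus. By limma within the thymus, 6 probesets (0.0193%) passed the criteria for sexually dimorphic expression (SDE), 1 higher in males and 5 higher in females. The 1 was Eif2s3y, a translation factor gene of the Y chromosome, at 10.34 ± 0.38 in males and 2.92 ± 0.29 in females (n = 4 each), a difference of 7.42 (adjusted p = 6.81e-05). Of the other 5, 4 were named for Xist, the transcript of X inactivation, of which 1374684_at was at 3.23 ± 0.96 in males and 12.22 ± 0.61 in females (difference -8.99, adjusted p = 0.00307). In these genes no male array overlapped a female one. At an unadjusted p under 0.05 by limma there were 719 probesets higher in males and 733 higher in females, 1452 of 31042 in all. That is not more than the share of 0.05 that this limit passes when there is no difference. At an adjusted p under 0.05, 13 probesets passed.

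The difference between the sexes, male minus female, was also compared with that in the other 25 somatic organs. It differed for 166 probesets (0.535%) at an adjusted p under 0.05, 8 of which were expressed in the thymus and 4 of which differed by more than 1. S100g, the calcium-binding protein calbindin-D9k, lay at 4.65 to 4.98 in males and at 5.73, 9.24, 9.49 and 9.33 in females 1, 3, 4 and 5. The thymus difference was -3.62, that of the other organs -0.03, and their difference -3.59 (SE 0.92, adjusted p = 0.0285), while within the thymus alone the adjusted p was 0.707. The call was lost without any 1 of males 1, 2 and 3 and females 3, 4 and 5, at values between -3.64 and -3.24. Fgfbp1, a carrier of fibroblast growth factors, was at 7.74 in males and 5.75 in females, a difference from the other organs of 2.00 (adjusted p = 0.00371) that was 0.94 without female 1 and was also lost without male 1 (1.74) or male 3 (1.73). Fcho1, of clathrin-coated pits, was at 6.76 in males and 5.14 in females, a difference from the other organs of 1.58 (adjusted p = 0.00555), which was 0.58 without female 4 and 1.24 without male 2, neither of them called. Pax1, above every other organ in both sexes together, was at 8.72 in males and 8.17 in females. Its difference from the other organs was 0.61 (adjusted p = 0.0259). That call was lost without male 3, male 4, female 3 or female 5, at 0.47 to 0.58. Pax1 averaged 2.96 over the other organs, where low GCRMA values are compressed. A sex difference could hardly show there, so for Pax1 the test cannot decide whether the thymus differs. By limma within the thymus alone the adjusted p was 0.885 for each of Fgfbp1, Fcho1 and Pax1. The interaction pooled the spread over organs, and for Fgfbp1 the SE was 0.44 there and 1.15 within the thymus.

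Genes high in the thymus stood apart on 1 array of the thyroid. The thyroid of male 1 read 8.79 for Cd8a, 6.91 for Cd8b, 9.53 for Cd3d, 7.55 for Cd3e, 10.56 for Lck, 8.63 for Bcl11b, 10.81 for Satb1 and 8.11 for Tbata. On the other thyroid arrays Cd8a lay between 2.16 and 3.99 and Cd3d between 2.09 and 4.52. The thyroid of female 4 came next, with 6.55 for Tbata and 7.30 for Lck. Tg, the thyroid marker, was at 15.15 on the array of male 1, within the range of 15.15 to 15.40 over the thyroid arrays, while Cd4 was at 2.67 and Pax1 at 2.95 there. Where these transcripts came from was not tested.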

How the data were processed

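Values were log2 expression levels per probeset of the Affymetrix RAE230_2 array, which the authors made with GCRMA (version not given in the sources used here) from the chips that passed their quality metrics and deposited for the 31 organs. GCRMA corrects background by probe sequence, and a level is relative to the array and low values are compressed. The deposited arrays did not share a common distribution, with array medians of 3.86 to 4.45. Quantile normalization over all arrays moved the counts, for example from 3702 to 3112 probesets higher than the mean of the other organs. Of 31042 probesets, 20826 had 1 gene symbol in GEO's platform annotation, 436 several and 9780 none, and 20758 of the symbols matched RefSeq (GRCr8). Probesets can match near-identical genes, above all in RT1.

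Models were fitted with limma 3.58.1 in R 4.3.3 (statmod 1.5.0) with 1 coefficient per organ over all arrays, and tables were made in Python 3.11.15 with pandas 2.3.3 and numpy 2.4.6. Sex within the thymus was tested on its 8 arrays alone, and its difference from the other 25 somatic organs by an interaction over 234 arrays. SDE followed the study's criteria, an adjusted p under 0.05, a 2-fold difference and a mean over the expression limit. The fits between organs and between the sexes within the thymus were tested on simulated data, and the interaction fit was not. Replicates are organs of separate animals, numbered within each sex by the labels. The study supplement lists an animal number for each chip, and sample numbers that form a series of their own in the adrenal, bone marrow, pituitary and ovary, so it was not settled that equal numbers mark 1 animal there. Residuals of same-numbered arrays correlated at 0.061 on average (169 pairs with the thymus) and others at -0.015 (687 pairs), so the block on sex and number was an alternative (consensus correlation 0.0175).

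Named genes were the 20 with the largest gap above and the 10 with the largest distance below every organ, the SDE genes, Cd8a, and the members of 26 lists, using for each gene the probeset with the highest mean over organs. Members and lists were chosen with earlier results of these data known. Alternatives were quantile normalization, each sex alone, leaving out each thymus array, other organ sets, leaving out the thyroid of male 1 (chosen after seeing the data), a 1.5-fold threshold and no expression threshold.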

Additional observations from a re-analysis of the deposited data

Results flagged for a closer look

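Of 167 groups of 4 to 10 arrays examined, 21 (12.6%) held an array far from the rest of its group. The limit for this was one that about 1 in 20 groups passes by chance. The share cannot be set against that rate, because thyroid groups were added after the array of male 1 was seen to be high. Flags of several genes on the same array, such as the muscle genes on male 2, were also not independent. In the thymus the array that lay apart was the highest for Epas1 (8.39, male 4), Mcm3 (10.28, male 3), Gzmm (3.71, male 1), Klrd1 (4.36, male 4), Pax8 (3.53, female 1), Casr (2.65, female 4) and Pdgfra (5.86, male 4). It was the lowest for Notch1 (8.51, male 4) and Il2rb (5.34, female 5). The muscle genes Acta1, Ckm and Mb all lay apart on male 2, at 8.88, 5.41 and 2.78. Within the 4 female arrays, S100g was low on female 1 (5.73) and the unnamed probeset 1394848_at on female 3 (6.19).

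On the thyroid of male 1, 7 genes of thymocytes lay far above the other thyroid arrays, at 8.79 for Cd8a, 6.91 for Cd8b, 9.53 for Cd3d, 7.55 for Cd3e, 10.56 for Lck, 8.63 for Bcl11b and 10.81 for Satb1.

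The difference between males and females in the thymus differed from that in the other somatic organs, by the interaction test, by -3.59 for S100g, 2.00 for Fgfbp1, -1.80 for 1373177_x_at, 1.58 for Fcho1, -0.88 for Wdpcp, 0.73 for LOC102551899, 0.67 for 1394848_at and 0.61 for Pax1. Of these, 1394848_at was at 0.33 without female 3 and 1373177_x_at at -1.53 without female 4 and -1.43 without female 5, and neither was called then. The call of Wdpcp was lost without any 1 of males 1, 2, 3 and 4 and females 4 and 5, at -0.89 to -0.68. LOC102551899, 1394848_at and Pax1 averaged 2.58, 2.65 and 2.96 over the other organs, where low GCRMA values are compressed. A sex difference could hardly show there, so for these the test cannot decide whether the thymus differs. Their SE was 0.08, 0.11 and 0.16 in the interaction and 0.22, 0.34 and 0.24 within the thymus. By limma within the thymus alone their adjusted p was 0.877, 0.885 and 0.885.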

How the results depend on the processing

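Leaving out each thymus array in turn gave 3665 to 3730 probesets higher and 1649 to 1696 lower than the mean of the other organs, 194 to 220 above and 15 to 17 below every organ, 1994 to 2085 higher and 1927 to 1962 lower than spleen, 1451 to 1520 and 1360 to 1391 for the mandibular lymph node, 1609 to 1683 and 1715 to 1750 for the mesenteric lymph node, and 3118 to 3193 and 1729 to 1761 for bone marrow. It gave 1 SDE probeset higher in males, 5 to 7 higher in females and 147 to 247 interaction calls. With the replicate block on sex and number the counts were 3697, 1672, 209 and 16, with 172 interaction calls, and none of the named calls changed. Quantile normalization gave 3112 higher, 1840 lower, 161 above and 24 below every organ, and all 161 were among the 210. Of the 210, 170 were also called in males only and 163 in females only.

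The counts moved with the thresholds. Without the expression threshold 4383 probesets were lower than the mean of the other organs and 70 below every organ, and 3241 were higher and 3180 lower than in spleen, 2528 and 2479 for the mandibular lymph node, 2659 and 3173 for the mesenteric lymph node and 5143 and 3283 for bone marrow. A 1.5-fold threshold gave 378 above and 30 below every organ, and 3829, 2849, 3085 and 4732 higher than in spleen, mandibular and mesenteric lymph node and bone marrow. Without the spleen, lymph nodes and bone marrow 705 were above and 52 below every organ. Below every organ were 37 in females only and 34 with the 26 somatic organs only. With 1 fit over all groups, SDE calls numbered 8 for males and 8 for females, and they were 17 and 13 at an unadjusted p with the other criteria and 719 and 733 at an unadjusted p alone. The counts at an unadjusted p alone are not more than that limit passes by chance.

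Of 2841 values of named genes and lists under the alternatives, 2776 were scored as unchanged, 37 as weaker and 28 as stronger. The score followed calls and list counts, and it did not follow the direction of values that were not called. A small change in a list count could also be scored as unchanged. Across the settings, the number of B cell genes higher than the mean of the other organs ranged from 1 to 6. Among the 20 genes with the largest gap above every organ, the loss was LOC102551899 in females only (3.19). Of the list members above every organ, those of the T cell receptor complex numbered 6 in place of 9 in males only, its signalling genes 2 in place of 5 in males only, and the T lineage factors 3 in place of 6 with quantile normalization and in females only. Below every organ, 189 of 200 were kept, with losses for Ogn, Ccn2, Epas1, Lrrc58, Sparc and Vkorc1, of which Ogn was lost without male 1, male 2 or female 1 and the others in males only or, for Ccn2, females only; the cause was not tested. The 3 to 10 arrays per organ, with the fewest in the epididymes, and the GCRMA floor limit what can be seen of weak transcripts.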
